A study of Mus musculus with 8 samples.

Results

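The genes described here are 34 genes of glucose metabolism, chosen by symbol: the enzymes of glycolysis from hexokinase to lactate dehydrogenase, the enzymes that set the level of fructose bisphosphate regulators of glycolysis, the enzymes of the pentose phosphate pathway, and the first subunits and the kinases of the pyruvate dehydrogenase complex. All 34 were found in the deposited table, which names 23420 genes, and all 34 reached a mean of 10 normalized reads. The table compares corneal buttons with limbal rims of wild-type, 8-week-old C57BL/6J mice. The corneal button is the clear central cornea, and the limbal rim is the zone encircling it, which borders the conjunctiva and sclera and holds the epithelial stem cells of the cornea. Both tissues were cut apart by hand under a microscope, and each was pooled over eyes before RNA extraction, so differences between animals cannot be seen. The labels number 4 samples per tissue, but the table is built from 1 cornea library and 1 limbus library, so no spread between replicates is known. The intervals given below are 95% intervals of counting error only.

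Glycolysis splits glucose into pyruvate, with a small yield of ATP, and lactate dehydrogenase turns pyruvate into lactate where oxygen is short or mitochondria are not used. The pentose phosphate pathway branches off after hexokinase: its oxidative part makes NADPH, the reducing agent of fatty acid synthesis and of the glutathione system, and its non-oxidative part, run by transketolase and transaldolase, turns pentoses back into glycolytic intermediates. The cornea has no blood vessels and takes its glucose mainly from the aqueous humor. Transketolase is so abundant in the mouse cornea that it has been called a corneal crystallin, together with aldehyde dehydrogenase Aldh3a1.

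Reads on named genes came to 26104317 for the cornea and 21182025 for the limbus. Reads were divided by a size factor for each library, 1.03 for the cornea and 0.967 for the limbus, and ratios are given as cornea over limbus on the log2 scale, so a positive value is a higher level in the cornea. The labels of both tissues could be checked against marker genes. Krt12, the keratin of differentiated corneal epithelium, had 1137735 corneal and 233324 limbal reads. Krt15, a keratin of limbal basal cells, had 37738 corneal and 353826 limbal reads. Of the limbal and conjunctival epithelial markers, all 5 whose mean reached 10 were higher in the limbus, with 86790 corneal and 630375 limbal reads in all, or 7.76-fold, and so were 3 of 4 corneal endothelial markers. The part of this epithelium in any ratio given below was not tested. Other tissue was present in the limbus library: 10 of 10 skeletal muscle markers, 6 of 6 blood endothelial markers, 6 of 6 leukocyte markers, 6 of 6 melanocyte and pigment epithelium markers and 6 of 6 lens markers were higher there by 1.5-fold or more. The same was true of all 5 smooth muscle and 7 neuron and photoreceptor markers whose mean reached 10. Summed over each list, these markers were 27.6-fold (skeletal muscle), 27.6-fold (smooth muscle and pericyte), 12.5-fold (blood endothelium), 10.7-fold (lens), 9.45-fold (neuron and photoreceptor), 6.05-fold (leukocyte) and 5.38-fold (melanocyte and pigment epithelium) higher in the limbus. For skeletal muscle, Tnni2 held 409 of the 516 corneal reads in the sum, and the median log2 ratio was -6.42. For blood endothelium, Kdr held 170 of 234, and the median was -5.96. In such bulk samples, fewer cells of a type and less RNA per cell cannot be told apart.

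Most of the 34 genes differed by less than 1.5-fold between the tissues. By the rule used here, a ratio of at least 1.5-fold with an interval that leaves out a ratio of 1, 3 genes were higher in the cornea (Tkt, Rpe and Pdk1) and 6 were higher in the limbus (Pfkl, Pfkp, Eno2, Ldhb, Taldo1 and Pdk4). The other 25 did not reach it. Over the 13932 genes whose mean reached 10, this rule put 20.6% on the corneal side and 22.8% on the limbal side, or 43.3% in either direction, against 26.5% of the 34. Scaling to total reads in place of size factors lowers every log2 ratio by 0.21, and then 3 of the 34 were higher in the cornea and 9 in the limbus, while the cornea's part of the calls over all genes went from 47.4% to 32.4%. At any fold beyond counting error, 14 of the 34 were higher in the cornea and 14 in the limbus, against 40.5% and 36.0% of all genes. The median log2 ratio was -0.02 over the 34 genes and 0.04 over all genes. The median size of the ratio, regardless of direction, was 0.33 over the 34 and 0.51 over all genes. These genes were mostly abundant, and at a mean of 1000 or more 2 of 22 were called on the corneal side and 2 on the limbal side, against 23.6% and 7.44% of the 4300 genes at that level. At 2-fold, 1 of the 34 stood on the corneal side and 4 on the limbal side, against 8.75% and 17.7% of all genes.

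**Figure D1:**
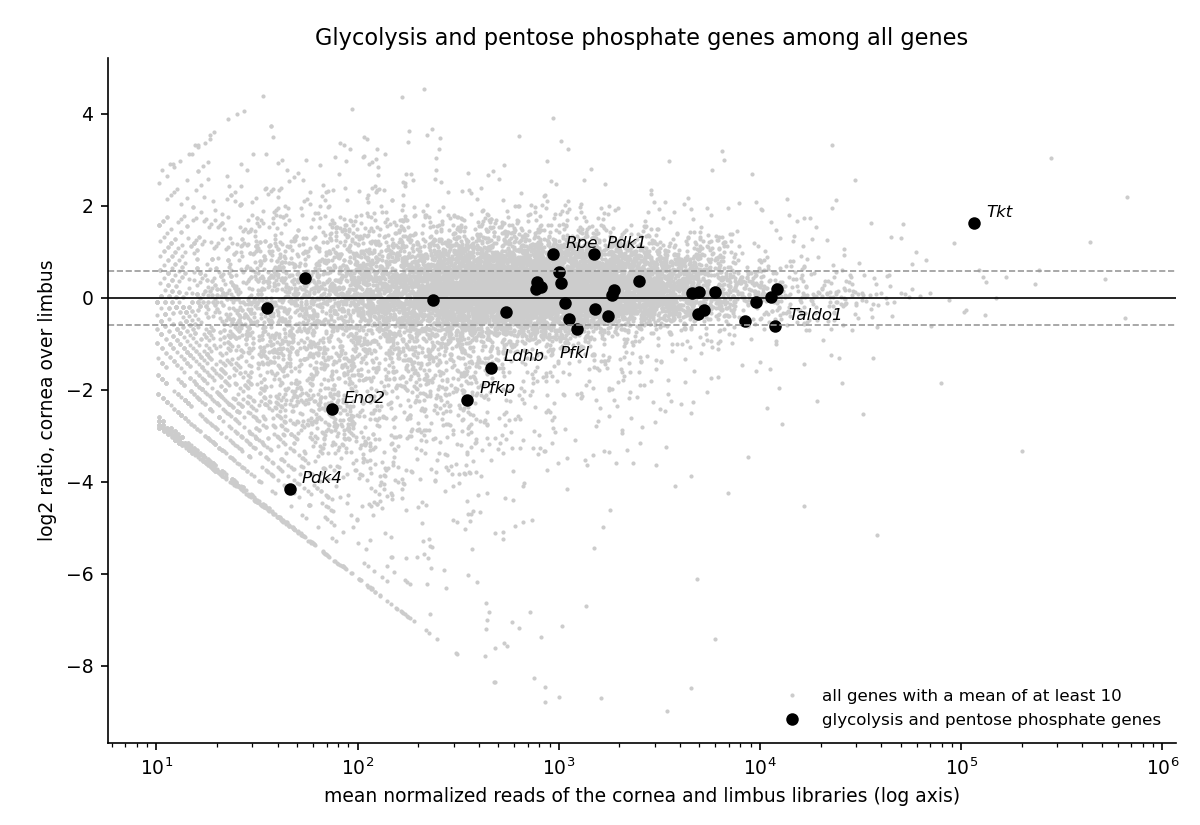
Each point is a gene, with its mean normalized reads over the cornea and limbus libraries on a log axis and its log2 ratio of cornea over limbus, all genes whose mean reached 10 in grey and the 34 glycolysis and pentose phosphate genes in black. Dashed lines mark 1.5-fold, the 9 named genes lie beyond them, and the lower diagonal edge of the grey points is made by genes set to the floor of 3 reads in the cornea. Tkt stands at the right, far above the other 33 in mean.

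Tkt, which encodes transketolase, had the highest level per length of the 34 genes in both tissues. It had 180082 corneal and 54694 limbal reads, which is 0.69% and 0.258% of all reads on named genes. Its level was 3.08-fold higher in the cornea (log2 ratio 1.62, interval 1.61 to 1.64). Counted per length, as RPKM, that is reads per kb of exon scaled to library size, its level was 2140.4 in the cornea, the 21st highest of 16268 genes, and 801 in the limbus, the 82nd highest. Tkt alone made up 64.2% of the reads of all 34 genes in the cornea and 35.2% in the limbus. Without it, the other 33 genes together had 100442 corneal and 100890 limbal reads, a log2 ratio of -0.10 (interval -0.12 to -0.09). The corneal epithelial markers stood beside this: their summed level was 2.40-fold higher in the cornea, with 3 of 6 past 1.5-fold and a median log2 ratio of 0.55. The sum was carried by Krt12 (4.56-fold) and Aldh3a1. The epithelial adhesion genes Cdh1 (1.09-fold) and Epcam (1.32-fold) and the basal keratin Krt5 (1.32-fold) were nearer to even. Kera, the keratan sulfate proteoglycan of keratocytes, was 7.97-fold higher in the cornea, but its list did not follow it. Of 6 keratocyte and stroma markers, 3 (Col1a1, Col1a2 and Dcn) passed 1.5-fold on the limbal side. Lum and Col5a1 stayed below 1.5-fold, and the summed list was 1.47-fold higher in the limbus. Aldh3a1, the other corneal crystallin, had 634936 corneal and 255152 limbal reads, a log2 ratio of 1.22. The part of a different share of epithelium in the ratio of Tkt was not tested. No read of the related genes Tktl1 and Tktl2 was found in either library, where a count of 0 allows up to 3 reads.

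The gene lies at chr14:30548359-30574720 on the plus strand (GRCm38), and the 1 gene annotated within it is the microRNA Mir3076, on the same strand. The 100 bases before the transcription start that the RefSeq promoter table of GRCm38.p6 gives, chr14:30549031-30549130, are shown because Tkt carries the largest share of reads here. GENCODE also has an earlier start, and this stretch lies in none of its exons. Capitals mark GC boxes, that is GGGCGG on either strand:
Tkt: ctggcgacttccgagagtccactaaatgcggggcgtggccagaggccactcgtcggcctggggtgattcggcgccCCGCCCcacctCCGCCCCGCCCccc
This stretch was 74.0% G and C, against an average of 55.6% over the same stretch of all promoters in that table, and it held 3 GC boxes. At least 1 GC box was present in 24.7% of all promoters and 3 or more in 3.33%.

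The genes that work beside transketolase did not move as one group. Rpe, ribulose phosphate epimerase, had 1277 corneal and 622 limbal reads, and was 1.92-fold higher in the cornea (log2 ratio 0.94, interval 0.80 to 1.08). Rpia, the isomerase that makes ribose phosphate, had 1179 and 880 reads, short of 1.5-fold (0.33, interval 0.20 to 0.45). Taldo1, transaldolase, went the other way. It had 9732 corneal and 13963 limbal reads and was 1.53-fold higher in the limbus (log2 ratio -0.62, interval -0.65 to -0.58). Transaldolase was the second most abundant of the 34 genes per length, at 273 RPKM in the cornea and 483 in the limbus. Tkt RPKM were therefore 7.83 times those of Taldo1 in the cornea and 1.66 times in the limbus.

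The oxidative enzymes of the pathway differed little between the tissues. G6pdx, glucose 6-phosphate dehydrogenase, the entry step, had 6441 corneal and 5498 limbal reads (log2 ratio 0.13, interval 0.08 to 0.19). Pgd, the second NADPH-making enzyme, had 4878 and 4274 reads (0.09, interval 0.04 to 0.15). Pgls, the lactonase between them, had 1571 corneal and 1928 limbal reads (-0.39, interval -0.49 to -0.29). The 3 genes together had a log2 ratio of 0.04 (interval 0.01 to 0.08), and in the cornea Tkt RPKM were 23.0 times those of G6pdx, against 8.19 times in the limbus. Scaling to total reads turns the signs of G6pdx and Pgd.

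**Figure D2:**
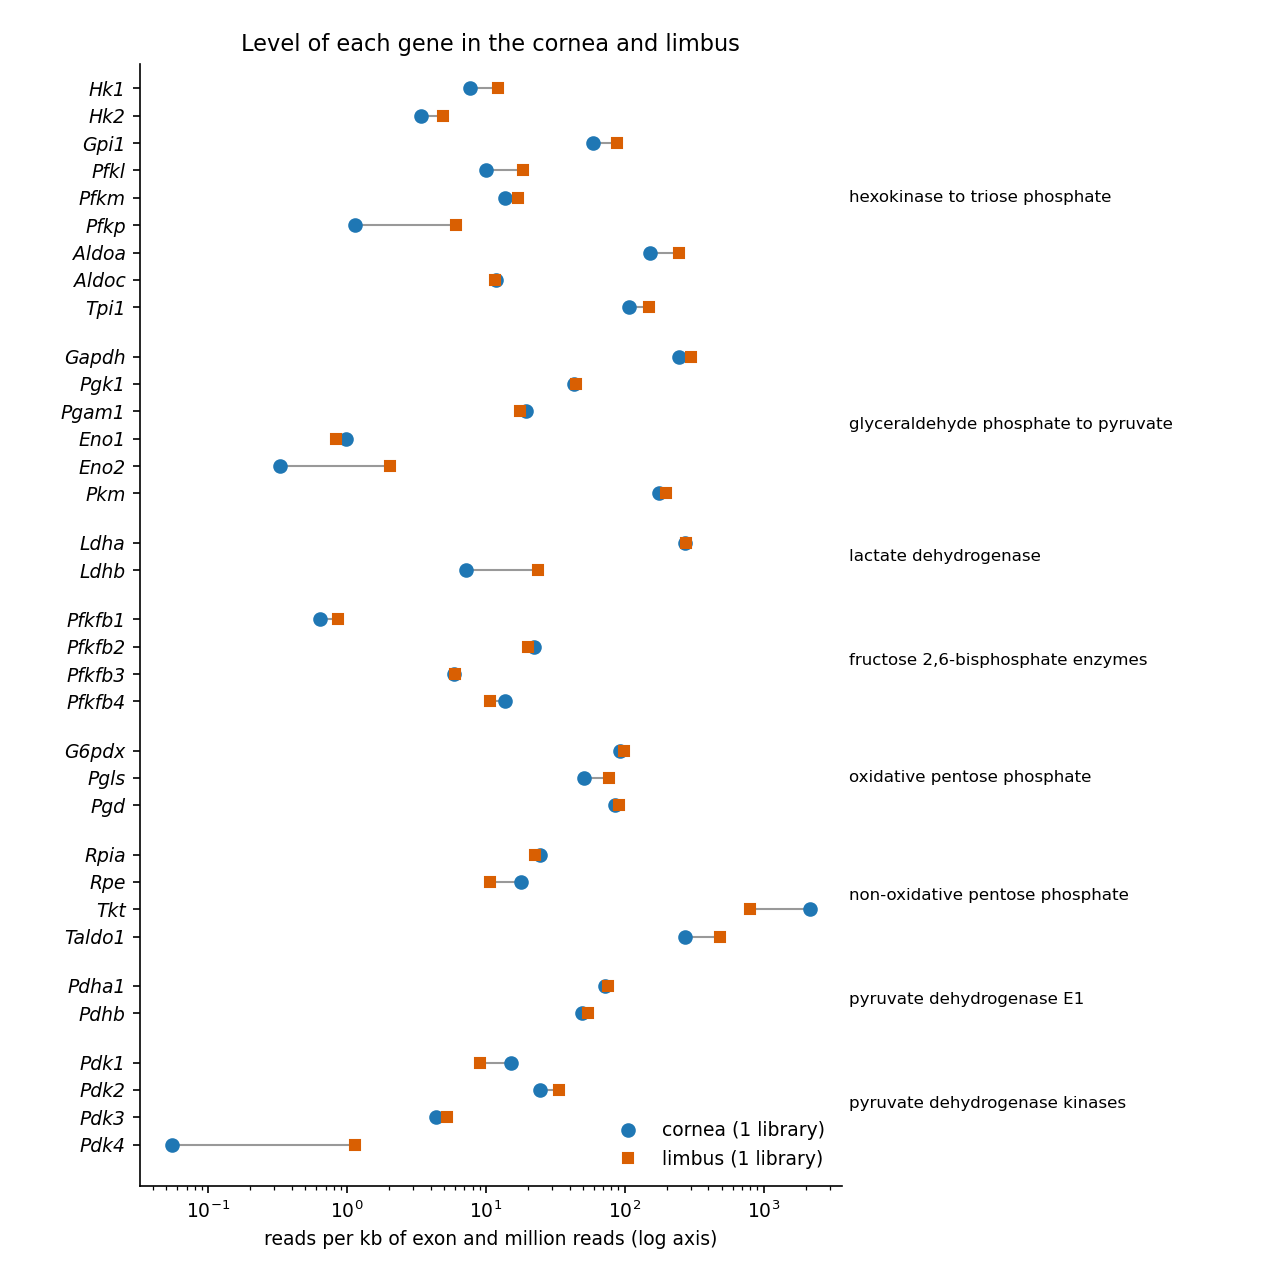
Level of each gene in the cornea library (circles) and the limbus library (squares) as RPKM on a log axis, grouped by role, with a line joining both tissues. RPKM scale to total reads and not to size factors, so some genes with a small positive log2 ratio, such as Ldha, lie higher in the limbus here. Tkt is highest in both tissues at 2140.4 and 801, and the widest gaps are those of Pfkp, Eno2, Ldhb and Pdk4, each lower in the cornea.

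In the upper part of glycolysis, from hexokinase to triose phosphate, the ratios were on the limbal side for 8 of 9 genes. Of the 9, 7 lay on that side with an interval that left out 0, against 36.0% of all genes. The 9 log2 ratios had a median of -0.37. Summed, the 9 genes had 21176 corneal and 26180 limbal reads, 1.32-fold higher in the limbus (log2 ratio -0.40, interval -0.43 to -0.38). Only 2 of the 9 reached 1.5-fold on the limbal side, against 22.8% of all genes. These were Pfkl and Pfkp, both subunits of phosphofructokinase, the main control point of glycolysis. Pfkl, the liver-type subunit, had 971 corneal and 1461 limbal reads and was 1.61-fold higher in the limbus (log2 ratio -0.69, interval -0.80 to -0.57). Pfkp, the platelet-type subunit, had 128 and 557 reads and was 4.65-fold higher in the limbus (-2.22, interval -2.51 to -1.94). The difference was thus larger in the platelet type than in the liver type. Pfkm, the muscle-type subunit, had 1068 and 1084 reads and an interval that held 0 (-0.12, interval -0.24 to 0.01). Skeletal muscle markers were 27.6-fold higher in the limbus in their sum, and their part in the reads of Pfkm was not tested.

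Hexokinase, which traps glucose in the cell, was represented by Hk1 with 972 corneal and 1255 limbal reads (-0.46, interval -0.59 to -0.34) and by Hk2 with 502 and 582 reads (-0.31, interval -0.48 to -0.13). Gpi1, glucose phosphate isomerase, had 4448 and 5361 reads (-0.37, interval -0.42 to -0.31). Aldoa, the main aldolase, had 7208 corneal and 9551 limbal reads and came nearest to 1.5-fold of the genes that missed it on the limbal side, at 1.42-fold (-0.50, interval -0.55 to -0.46). All of these were lower in the cornea beyond counting error. Tpi1, triose phosphate isomerase, had 4966 and 5599 reads (-0.27, interval -0.32 to -0.21). Aldoc, the aldolase of brain, was the exception in this part, with 913 corneal and 730 limbal reads (0.23, interval 0.09 to 0.37).

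In the lower part of glycolysis, from glyceraldehyde phosphate to pyruvate, the abundant enzymes differed little. The sum was 24482 corneal and 23034 limbal reads, with a log2 ratio of -0.01 (interval -0.03 to 0.02), and 5 of 6 genes stayed below 1.5-fold. Gapdh, often used as a reference gene, had 9584 and 9536 reads (-0.09, interval -0.13 to -0.05). Pkm, which encodes pyruvate kinase and makes the last ATP of the pathway, had 11856 and 10963 reads and an interval that held 0 (0.02, interval -0.02 to 0.05). Pgk1, phosphoglycerate kinase, with 2057 and 1706 reads, had a ratio of 0.17 (interval 0.08 to 0.27). Pgam1, phosphoglycerate mutase, had 896 and 663 reads (0.34, interval 0.19 to 0.49). Scaling to total reads would turn the signs of Pkm and Pgk1, but not that of Pgam1.

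Enolase, the step before pyruvate kinase, had few reads in the table. Eno1, the enolase of most tissues, had 65 corneal and 45 limbal reads, or 0.98 and 0.83 RPKM, while its neighbours in the pathway had between 17.6 and 301 RPKM. Near-identical sequence covers 85.6% of its transcript: 3 other genes in the annotation, the functional copy Eno1b and 2 pseudogenes, match it at 95% identity or more. Eno1b had 3 corneal reads and no limbal read. The level of Eno1 is therefore uncertain, and its ratio of 0.43 has an interval (-0.14 to 1.02) that holds 0. Eno2, the enolase of neurons, has no such copy. It had 24 corneal and 121 limbal reads and was 5.39-fold higher in the limbus (-2.43, interval -3.13 to -1.79). The neuron and photoreceptor markers stood beside it at 9.45-fold higher in the limbus in their sum (597 corneal and 5277 limbal reads, ranging from 3 to 311 and from 12 to 2938 per gene). Their part in the ratio of Eno2 was not tested.

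Lactate dehydrogenase was mostly the A form in both tissues. Ldha had 13393 corneal and 10998 limbal reads, a log2 ratio of 0.19 (interval 0.15 to 0.23) whose sign turns when total reads are used for scaling. Ldhb, the heart form, which is known to favour lactate use, had 245 and 657 reads and was 2.87-fold higher in the limbus (-1.52, interval -1.74 to -1.31). As a share of the RPKM of both, Ldhb was 2.59% in the cornea and 7.99% in the limbus. The ratio of Ldhb to Ldha reads was 3.27 times as high in the limbus as in the cornea (interval 2.81 to 3.81), a value that does not depend on scaling or gene length.

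**Figure D3:**
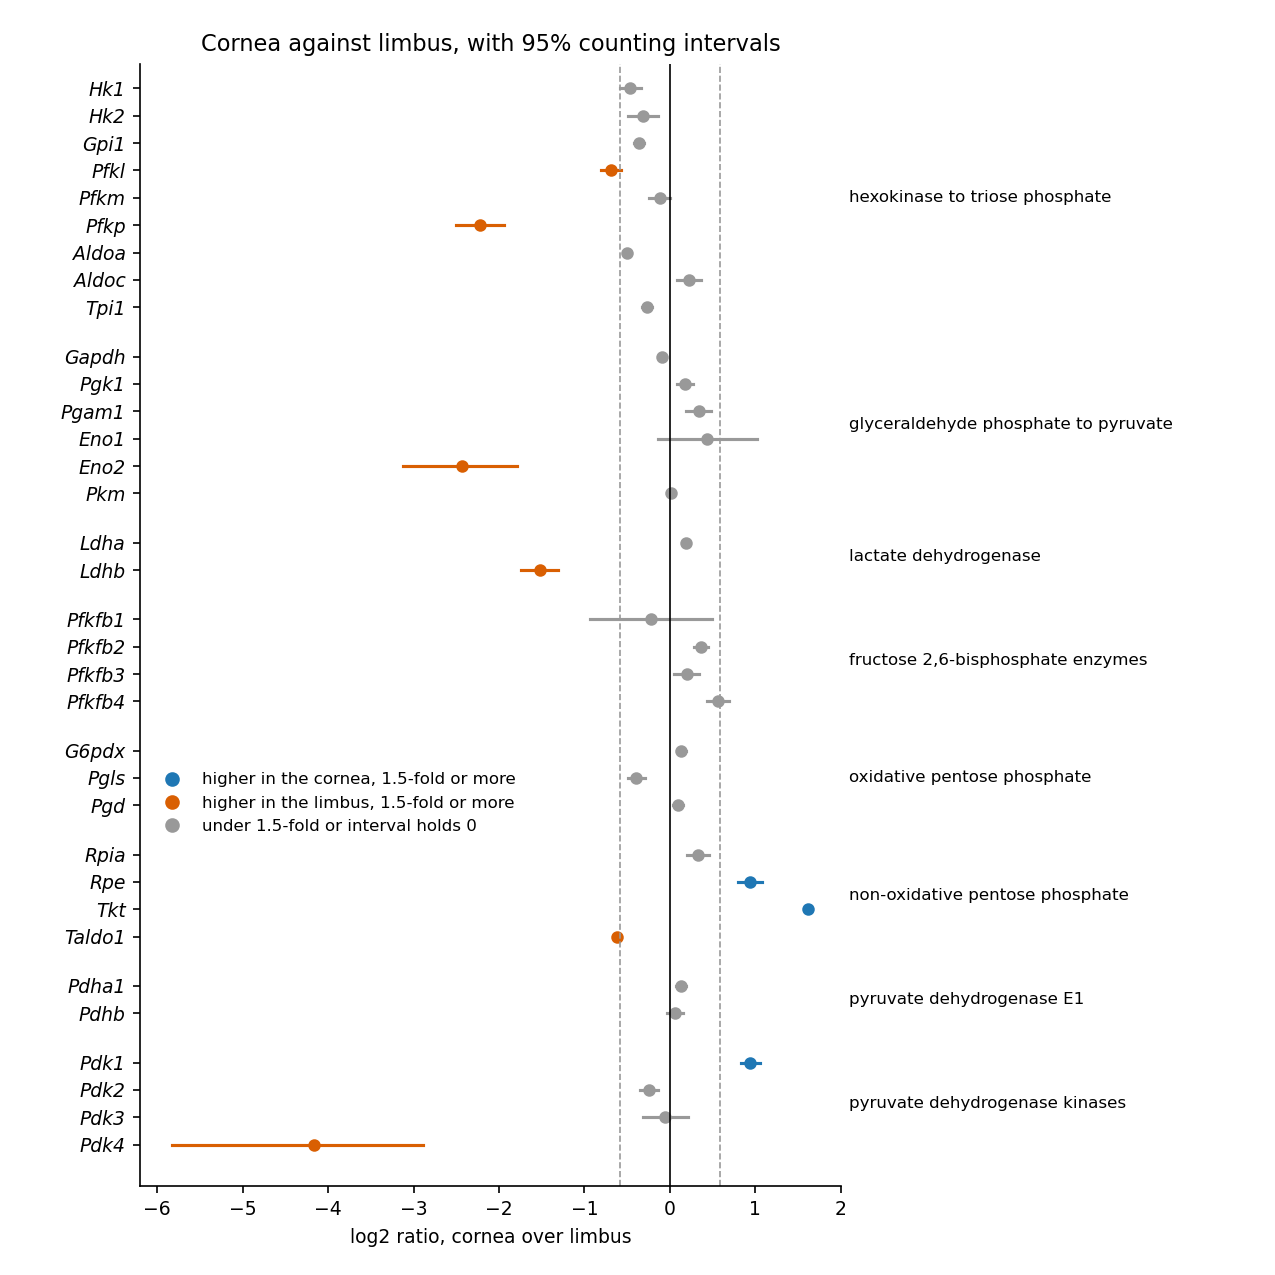
Log2 ratio of cornea over limbus for each of the 34 genes with its 95% counting interval, grouped by role. Blue marks the 3 genes that were at least 1.5-fold higher in the cornea, orange the 6 that were at least 1.5-fold higher in the limbus, and dashed lines stand at 1.5-fold. The intervals of Tkt and other abundant genes are narrower than the points, while that of Pdk4 spans -5.83 to -2.89.

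The make-up of the isozyme families showed where both tissues differed within a step. The family shares, per length, were nearly the same for the hexokinases: Hk2 held 30.9% in the cornea and 28.6% in the limbus. The interval of the ratio of Hk2 to Hk1 between tissues held 1 (1.11, interval 0.96 to 1.29). Among phosphofructokinases, Pfkp held 4.61% (cornea) and 14.7% (limbus), and Pfkm 55.1% and 40.9%. The ratio of Pfkp to Pfkl reads was 2.89 times as high in the limbus (interval 2.34 to 3.59), and that of Pfkm to Pfkl 1.48 times as high in the cornea (interval 1.32 to 1.67). Among aldolases, Aldoc held 7.20% (cornea) and 4.47% (limbus), and its ratio to Aldoa was 1.66 times as high in the cornea (interval 1.49 to 1.84). The limbus thus held more of the platelet-type phosphofructokinase and of the heart-type lactate dehydrogenase within each family, and the cornea more of Aldoc.

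**Figure D4:**
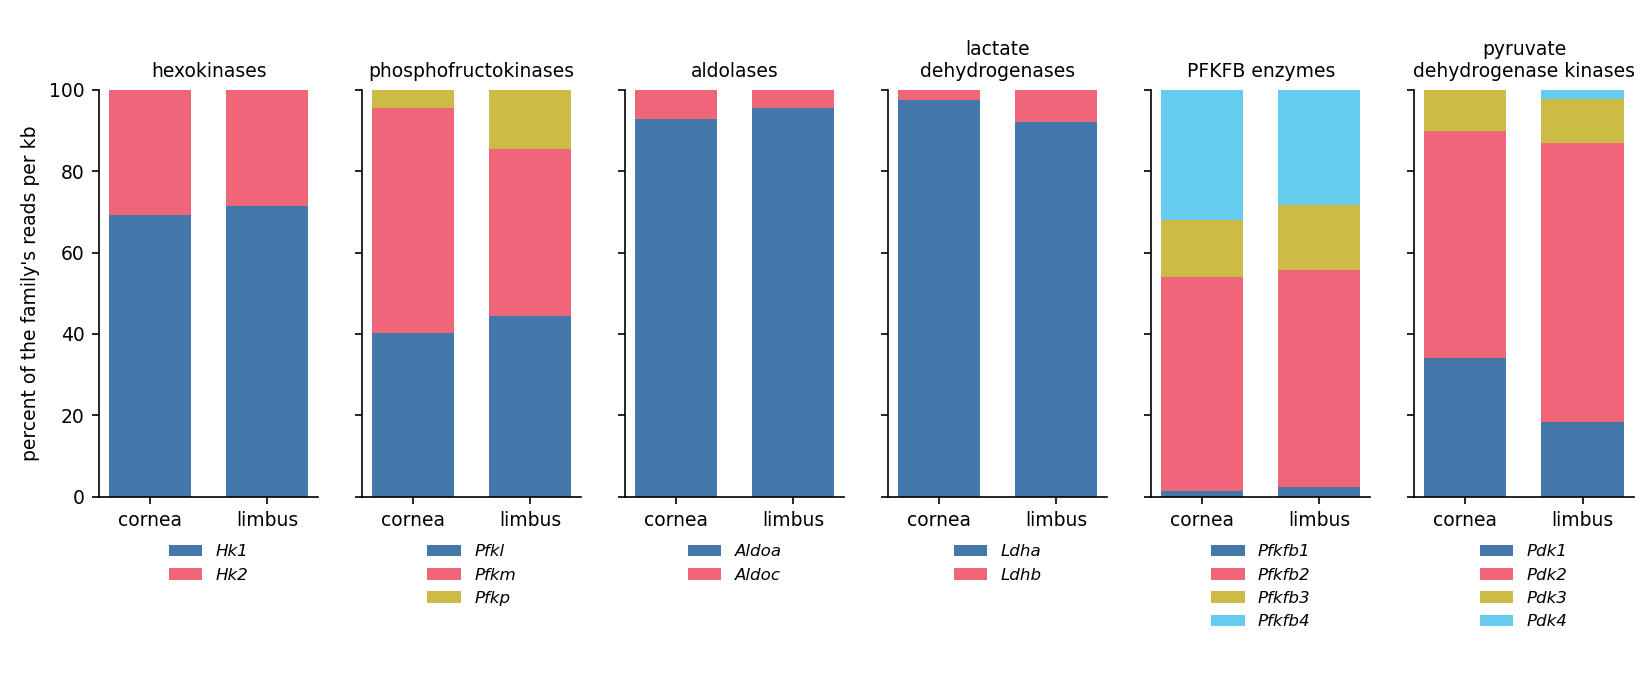
Share of each isozyme in the RPKM of its family, in percent, in the cornea and limbus libraries, for 6 families. Pfkp takes 4.61% of the phosphofructokinases in the cornea and 14.7% in the limbus, Ldhb 2.59% and 7.99% of the lactate dehydrogenases, and Pdk1 34.2% and 18.4% of the pyruvate dehydrogenase kinases.

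The bifunctional PFKFB enzymes make and break fructose 2,6-bisphosphate, the strongest activator of phosphofructokinase. None of the 4 reached 1.5-fold. Beyond counting error, 3 of the 4 were higher in the cornea, against 40.5% of all genes. Of these 3, Pfkfb3 changes sign when scaled to total reads. Pfkfb4 came nearest, with 1241 corneal and 786 limbal reads, or 1.48-fold (log2 ratio 0.56, interval 0.43 to 0.69). Pfkfb2, the form of heart, had the highest RPKM of the family, 22.3 in the cornea, from 2929 and 2128 reads (0.37, interval 0.28 to 0.45). Pfkfb3, the inducible form, had 855 and 698 reads (0.20, interval 0.05 to 0.34), and Pfkfb1, the form of liver, 34 and 37 (-0.22, interval -0.93 to 0.49). Summed over the family, the log2 ratio was 0.38 (interval 0.31 to 0.44). Family shares stayed within a few percent between tissues, with Pfkfb2 at 52.5% in the cornea and 53.4% in the limbus.

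The pyruvate dehydrogenase complex carries pyruvate into the mitochondrial citric acid cycle, and its kinases shut it off. Both genes of the first subunit stayed below 1.5-fold: Pdha1 had 5349 corneal and 4566 limbal reads (0.13, interval 0.08 to 0.19), and Pdhb 1947 and 1740 (0.07, interval -0.03 to 0.16), both with a sign that turns under total reads. The kinases, by contrast, spread over the widest range of any group of the 34 genes. Pdk1 had 2033 corneal and 990 limbal reads and was 1.92-fold higher in the cornea (0.94, interval 0.83 to 1.05). Pdk2, the kinase with the highest RPKM in both tissues, had 1434 and 1593 reads (-0.25, interval -0.35 to -0.14). Pdk3 had 241 and 234 reads, with an interval that held 0 (-0.05, interval -0.32 to 0.21). Pdk4, the kinase known to be induced in muscle and other tissues on fasting, had 5 corneal and 84 limbal reads and was 18.0-fold higher in the limbus (-4.17, interval -5.83 to -2.89).

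Per length, Pdk1 therefore held 34.2% (cornea) and 18.4% (limbus) of the kinases, and its ratio to Pdk2 was 2.28 times as high in the cornea (interval 2.05 to 2.54). The ratio of Pdk4 to Pdk2 was 15.1 times as high in the limbus (interval 6.20 to 47.9). Pdk4 made up 2.33% of the kinases in the limbus and 0.125% in the cornea. Skeletal muscle markers stood beside it with 516 corneal and 13327 limbal reads in all, from 2 to 409 reads per gene in the cornea and from 55 to 3126 in the limbus, and so did blood endothelial markers with 234 and 2740 reads. The median log2 ratio was -6.42 over the muscle markers and -5.96 over the endothelial markers. Their part in the ratios of Pdk4, Pfkp and Ldhb was not tested.

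For 11 of the 34 genes, other genes or pseudogenes in the annotation match over 10% of the transcript at 95% identity or more, and how the authors' counting placed reads shared by such copies is not given in the sources used here. They were Gapdh with 78 copies, Pgk1 and Ldha with 4 each, Eno1 with 3, Pkm with 2, and Gpi1, Tpi1, Pgam1, Ldhb, Pfkfb2 and Pdhb with 1 each. Of the 9 genes past 1.5-fold, Ldhb was the 1 with a copy, a pseudogene that matches 76.8% of its transcript. Among the 23 genes without copies, 3 were higher in the cornea and 5 in the limbus by 1.5-fold or more, against 20.6% and 22.8% of all genes. An annotated gene overlaps 18 of the 34, on the same strand for 6 of them (Pfkm, Pkm, Pfkfb2, Pfkfb3, Pgls and Tkt), and whether counting used strand is not stated.

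Many glycolytic genes are known targets of hypoxia-inducible factor, whose binding sites contain ACGTG or GCGTG. The promoters were searched for the letters ACGTG on both strands, and GCGTG was not searched. The RefSeq table of GRCm38.p6 gives 54 promoter windows, from 250 bases before to 50 bases after a transcription start, for all 34 genes. At least 1 window held the letters for 16 of the 34 genes, or 47.1%, against 21.8% of the 27025 genes in that table. Counted by window, it was 20 of 54 against 19.6% of 32851. None of the 9 genes past 1.5-fold was among the 16. This does not cover GCGTG, which the Tkt stretch printed above holds. The stretches of Ldha, Pgk1, Pfkfb2, Pfkfb3, Pfkm and Pdk2 are shown because each holds the palindrome CACGTG or a close pair of matches before the start, with the matching letters in capitals:
Ldha, chr7:46845651-46845672, plus strand, first match 145 bases before the start: tcgcagcaCACGTGgagccact
Ldha, chr7:46845748-46845782, plus strand, first match 48 bases before: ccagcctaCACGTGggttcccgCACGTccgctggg
Pgk1, chrX:106186942-106186981, plus strand, first match 150 bases before: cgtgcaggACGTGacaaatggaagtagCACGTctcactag
Pfkfb2, chr1:130715830-130715851, minus strand, first match 22 bases before: aagcgcccCACGTGactcgccc
Pfkm, chr15:98092445-98092466, plus strand, first match 136 bases before: aagtatgcCACGTGaagtaagt
Pfkfb3, chr2:11502130-11502151, minus strand, first match 53 bases before: cttctctcCACGTGaaaggggg
Pdk2, chr11:95041484-95041505, minus strand, first match 126 bases before: aggagagcCACGTGtcgaagcg
CACGTG is also the E-box to which Myc and the circadian clock factors bind, so the letters overlap with that motif. The log2 ratios of these 6 genes were 0.19 (Ldha), 0.17 (Pgk1), 0.37 (Pfkfb2), 0.20 (Pfkfb3), -0.12 (Pfkm) and -0.25 (Pdk2), all short of 1.5-fold. The core of the antioxidant response element, through which Nrf2 acts on pentose phosphate genes, was searched as TGACNNNGC on either strand. It was found for 5 of the 34 genes (Aldoa, G6pdx, Hk1, Pdhb and Pgd) against 14.0% of all genes. Counted by window, it was 5 of 54 against 12.4% of 32851. No window of the 9 genes past 1.5-fold held it. A match is a description of these letters and not a bound site.

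The factor itself and its other targets did not share 1 direction. Hif1a, the oxygen-regulated subunit, had 3017 corneal and 1126 limbal reads (log2 ratio 1.33), while Epas1, the related subunit of vessels and other tissues, had 13285 and 20246 (-0.70). Of the 14 genes of this list, 4 were higher in the cornea and 4 in the limbus by 1.5-fold or more. The shares over all genes were 20.6% and 22.8%. Egln3, an oxygen-sensing prolyl hydroxylase, had 31190 corneal and 12283 limbal reads (1.25), and Higd1a 960 and 541 (0.73). Vegfa, the blood vessel growth factor, had 193 and 510 reads (-1.50), and Bnip3, a mitophagy receptor, 42 and 99 (-1.33). The median of the list was 0.24, against 0.04 over all genes.

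Carriers that bring hexoses, lactate and pyruvate across membranes were split. Of 14, 4 were higher in the cornea and 6 in the limbus, against 20.6% and 22.8% of all genes. Slc2a1, the glucose carrier GLUT1, had 1834 corneal and 1139 limbal reads (log2 ratio 0.59). Slc16a1, the lactate carrier MCT1, had 154 and 59 (1.29), and Mpc2, a subunit of the mitochondrial pyruvate carrier, 3391 and 1680 (0.92). These 3 were at least 1.5-fold higher in the cornea, but Slc2a1, at 1.51-fold, no longer passed with a trimmed mean or total reads, which left 3 carriers on that side. On the limbal side were Emb, a partner protein of lactate carriers, with 1020 and 2424 reads (-1.34), Slc2a4, the insulin-responsive glucose carrier of muscle and fat, with 63 and 138 (-1.23), and Slc5a1, the sodium-glucose carrier SGLT1, with 8391 and 12516 (-0.67).

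Other isozymes, among them those of muscle and other organs, were also counted. Of 18 such genes, 5 reached a mean of 10 and 4 of these were higher in the limbus, against 22.8% of all genes. Pgam2, the muscle mutase, had no corneal and 340 limbal reads, a level at least 41.1-fold higher with the cornea set to the floor of 3 reads. Eno3, the muscle enolase, had 93 and 787 reads (-3.18), and H6pd, the pentose phosphate dehydrogenase of the endoplasmic reticulum, 841 and 1241 (-0.66). Muscle markers were 27.6-fold higher in the limbus in their sum, with a median log2 ratio of -6.42. Among them, Ckm, muscle creatine kinase, had 5 corneal and 1653 limbal reads, and Tnni2 had 409 and 1666. The part of muscle in the ratios of Pgam2 and Eno3 was not tested.

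The rest of the pyruvate dehydrogenase complex and its phosphatases was higher in the cornea for 3 of 6 genes and in the limbus for 1. The shares over all genes were 20.6% and 22.8%. Pdhx, the protein that holds the complex together, had 1106 corneal and 540 limbal reads (0.94), Pdp2, a phosphatase that turns the complex on, 395 and 203 (0.86), and Dld, the third enzyme of the complex, 2263 and 1377 (0.62). Pdp1, the other phosphatase, had 242 and 375 (-0.73). The citric acid cycle downstream varied little: of 16 genes, Idh3a with 1704 and 1059 reads (0.59) was the 1 that passed 1.5-fold, in the cornea, and none passed it in the limbus. Idh3a no longer passed with scaling by a trimmed mean or by total reads. Of 6 genes listed as other NADPH sources, Me2 was higher in the cornea with 628 and 377 reads (0.64), but this malic enzyme works mainly with NAD. Me1, cytosolic malic enzyme, with 247 and 644 reads (-1.48), and Idh2 with 882 and 1241 (-0.59) were higher in the limbus.

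**Figure D5:**
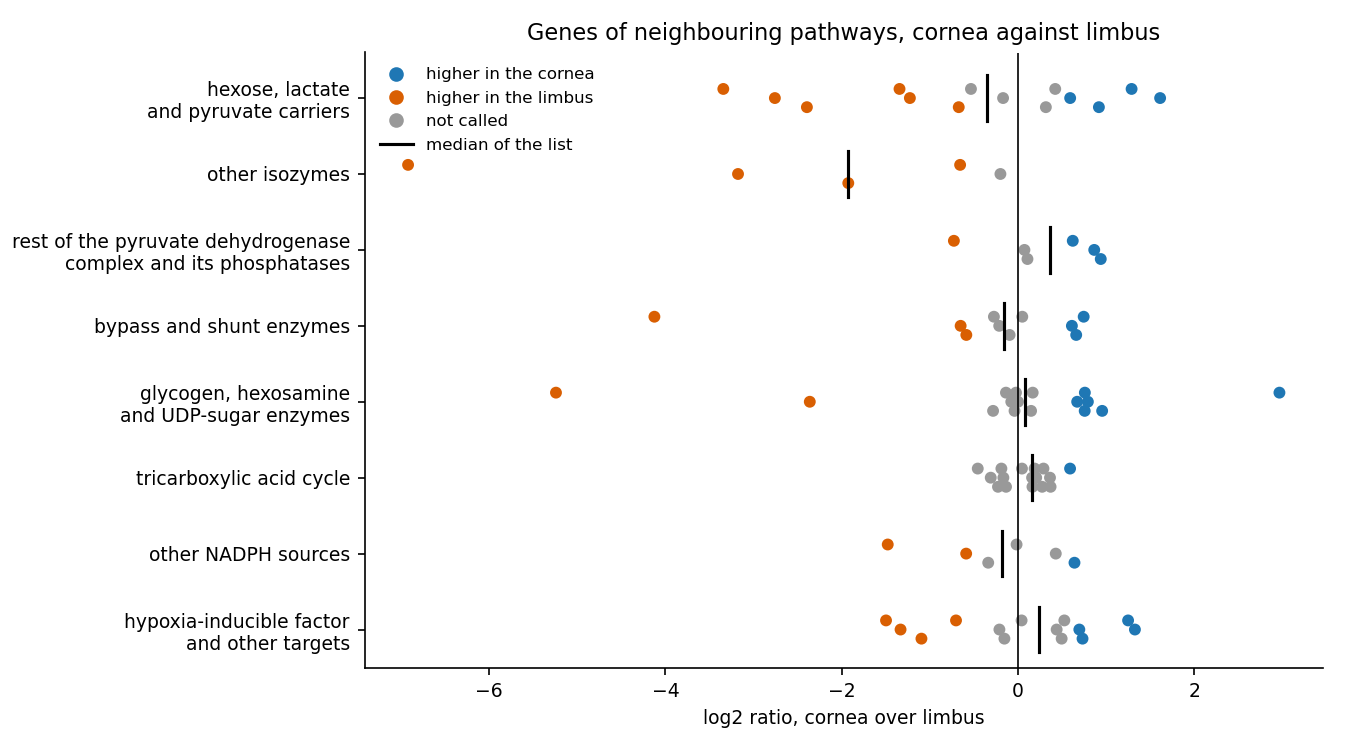
Log2 ratio of cornea over limbus for each gene whose mean reached 10 in 8 lists of neighbouring pathways, with blue for at least 1.5-fold higher in the cornea, orange for at least 1.5-fold higher in the limbus, grey for the rest and a bar at the median of each list. The 16 citric acid cycle genes lie between -0.46 and 0.59, while carriers and other isozymes spread to -3.34 and -6.92.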

How the data were processed

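Total RNA of pooled corneal buttons and limbal rims was made into stranded libraries and sequenced on an Illumina NextSeq. The authors used CLC Genomics Workbench to trim adaptors and to map the reads to the mouse genome (GRCm38, or mm10), and normalized by the trimmed mean of M-values. They deposited 1 table, with a mean normalized signal per gene, a fold change between the tissues on the log2 scale, the standard error of that fold change, and p-values. The authors' p-values and log2 values of the comparison are neither printed nor compared here. Of 40904 rows, 17484 (42.7%) name no gene and were left out.

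Every mean was a sum of whole reads from 2 libraries, in steps that set 109 reads of the cornea equal to 102 of the limbus. These steps gave the size factors used here. Whether they come from the normalization that the authors stated is not known. Where several read pairs gave the same mean, the deposited log2 fold change and standard error were used to choose among them. The chosen pair met the standard error to within 0.001 for 17413 of 17442 genes (99.8%). For 10 genes the pair was settled by how alike its dispersion was to that of genes of similar mean, none of them among the 34. Tpi1, Pgd, Gapdh and Ldha had another pair that met the standard error nearly as closely, but with a dispersion of 2.82 to 3.00 in place of 0.08 to 0.09. Read numbers are therefore derived values, not a count table. For the cornea against limbus comparison, data were simulated with the same model and with dispersions set to those of like genes. From them the step found the reads of all 17063 genes exactly. The direction was right for 49 of 50 genes made 1.5-fold higher in the cornea. Because the simulation assumes the model, it cannot show whether the model holds for the deposited values.

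Intervals are exact Clopper-Pearson intervals of the cornea share at the 95% level, or exact conditional intervals for ratios of isozymes, and cover counting error only. Libraries with 3 reads or fewer were set to 3. No test across replicates was made, since each tissue is 1 library. Exon lengths, overlapping genes and copies come from GENCODE M21. The design rule named all 34 genes and, in other lists, at most 3 genes per direction past the rule with a mean of at least 50. Eno1b, Tktl1, Tktl2, Pck1, Fbp1, Pygb, Tnni2 and Kdr were named after their values were seen. The genes and lists were chosen with earlier results of these data known. Alternatives were scaling to total reads, a trimmed mean of log ratios (30% and 5% trimmed), a pseudocount of 1, filters, other folds and the next best read pair. Python 3.11.15, numpy 2.4.6, scipy 1.17.1 and pandas 2.3.3 were used.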

Additional observations from a re-analysis of the deposited data

How the results depend on the processing

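With 1 library per tissue, there was no replicate to leave out and the spread between animals is unknown. No paired analysis was possible because no column carries a sample number. A limit is also set by depth: Eno1, Eno2, Pfkfb1 and Pdk4 rest on 5 to 121 reads per library.

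The 3 genes that were higher in the cornea and the 6 that were higher in the limbus by 1.5-fold were the same in number with a pseudocount of 1, a trimmed mean of log ratios, no filter and, as an alternative chosen after seeing the data, without the dispersion check on the read pair. At a fold of 2, 1 gene (Tkt) stood on the corneal side and 4 on the limbal side. At any fold with an interval that left out 1, the numbers were 14 and 14. Among genes whose mean reached 1000, 2 stood on the limbal side (Pfkl and Taldo1).

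Scaling to total reads lowered every log2 ratio by 0.21, since the totals of both libraries differ by more than their size factors, and added Aldoa, Hk1 and Pgls to the genes higher in the limbus. Under it the median of the 34 genes was -0.22. The medians by role became -0.57 (hexokinase to triose phosphate), -0.11 (glyceraldehyde phosphate to pyruvate), -0.87 (lactate dehydrogenase), 0.075 (PFKFB enzymes), -0.11 (oxidative pentose phosphate), 0.43 (non-oxidative pentose phosphate), -0.11 (pyruvate dehydrogenase first subunit) and -0.36 (its kinases). The sign of 8 of the 34 genes turned, and none of these had passed 1.5-fold. The genes higher in the cornea fell to 0 among bypass and shunt enzymes, 3 among glycogen, hexosamine and UDP-sugar enzymes, 0 in the citric acid cycle, 0 among other NADPH sources, 2 among hypoxia-inducible factor genes, 3 among carriers (Slc2a1 lost) and 2 in the rest of the pyruvate dehydrogenase complex (Dld lost), and 1 citric acid cycle gene was then higher in the limbus. With the trimmed mean, 0 citric acid cycle genes and 3 carriers were higher in the cornea.

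A next best read pair of like dispersion exists for 17 of the 34 genes and missed the deposited standard error by at least 448 times as much as the pair used. With it, by construction, read numbers move far: the median became -2.44 for lactate dehydrogenase and 0.98 for the non-oxidative pentose phosphate genes, and 1 citric acid cycle gene was higher in the limbus. Ratios of isozymes, cornea over limbus, became 1.36 (Hk2 to Hk1), 0.663 (Pfkp to Pfkl), 22.7 (Pfkm to Pfkl), 164.5 (Aldoc to Aldoa), 0.0253 (Ldhb to Ldha), 1.61 (Pfkfb4 to Pfkfb3) and 46.5 (Pdk1 to Pdk2).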

Other observations

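Enzymes of glycogen, hexosamine and UDP-sugar synthesis, which draw on glucose phosphates, differed in both directions. Of 17 listed genes, 6 were higher in the cornea by 1.5-fold or more and 2 in the limbus, against 20.6% and 22.8% of all genes. The median log2 ratio of cornea over limbus was 0.07 over the 16 whose mean reached 10. Pygl, the liver-type glycogen phosphorylase, had 6478 corneal and 776 limbal reads, a log2 ratio of 2.97. Pygm, the muscle-type phosphorylase, had 12 corneal and 425 limbal reads (-5.24). Skeletal muscle markers stood beside it, 27.6-fold higher in the limbus in their sum and with a median log2 ratio of -6.42. Their part in the ratio of Pygm was not tested. Pygb, the brain-type phosphorylase, chosen with its values in view, had 1897 and 1872 reads (-0.08). Ugp2, which makes UDP-glucose, had 2139 and 1033 reads (0.95), and Sord, sorbitol dehydrogenase of the polyol pathway, 2269 and 1226 (0.79).

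Among 12 listed bypass and shunt enzymes, 10 reached a mean of 10. Of these, 3 were higher in the cornea and 3 in the limbus, against 20.6% and 22.8% of all genes. Rbks, ribokinase, had 154 corneal and 86 limbal reads (0.74). Tigar, a phosphatase that lowers the level of the activator of phosphofructokinase, had 439 and 260 (0.66), and Gpd2, mitochondrial glycerol phosphate dehydrogenase, 3080 and 1887 (0.61). Pck2, mitochondrial phosphoenolpyruvate carboxykinase, had 460 and 676 reads (-0.65), and Pcx, pyruvate carboxylase, 1614 and 2268 (-0.59). The first gluconeogenic enzymes of liver, Pck1 and Fbp1, had no read in either library.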
